A study of Mus musculus with 48 samples.

Results

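Immediate early genes are switched on by calcium entry and synaptic activity without new protein synthesis, and 9 of them were followed here together with Bdnf in NMDA-exposed cortical neuron cultures. All 18 probes whose platform annotation names Fos, Fosb, Junb, Egr1, Egr2, Egr3, Arc, Npas4, Nr4a1 or Bdnf were taken, out of 46632 probes on the array. In neurons, calcium that enters through NMDA receptors and voltage-gated channels activates kinases that act on the transcription factors CREB and SRF, which are already bound at these genes. The products include subunits of the AP-1 transcription factor (Fos, Fosb, Junb), zinc finger factors (Egr1, Egr2, Egr3), the neuronal factor Npas4, the orphan nuclear receptor Nr4a1 and the synaptic protein Arc. Bdnf encodes a neurotrophin that acts through the receptor TrkB and promotes neuronal survival.

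The 48 arrays hold RNA from cortical neurons of CD-1 mice, an outbred stock, grown for 7 days, held for 1 h with a molecule or control, given NMDA in a hypotonic salt solution during 1 h and collected after 16 h of recovery in medium with the molecule. Every group received NMDA, so no unexposed level is known from these arrays. The 5 mock controls had no molecule (solvent by label, water) and the 5 vehicle controls had DMSO. The compounds were in water, DMSO or ethanol by label, and no control had ethanol. Of 36 compounds, 14 are labelled protective with protection ratios of 1.40 to 2.76, and 4 of these are labelled NMDAR antagonist (ifenprodil, MK-801, memantine and riluzole, the last also known as a blocker of sodium channels; ratios 1.40 to 1.87). Another 6 compounds are labelled non-protective (ratios 0.61 to 0.98), a class that the 10 controls share at a ratio of 1.00, and 18 arrays of 16 compounds (ratios 1.02 to 1.38) have neither label. A single array stands for each compound, but Z-VAD-FMK was run again, and so was MitoPBN, whose second array is labelled MitoPBN2. The labels do not say that arrays of a group came from separate cultures, so p-values measure only the spread between these samples. The arrays lie on 8 chips of 6. Mock controls sat on chips 1 to 5, and vehicle controls on chips 1, 2, 6, 7 and 8.

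Promoter sequence was on hand for 7 of the 10 genes, as 250 bases before each annotated start (RefSeq, GRCm38.p6). Those of Fos, Junb, Egr2 and Nr4a1 are shown, with 1 of 5 windows for Egr2, because they hold binding motifs through which calcium signals are known to reach these genes, in 3 genes that were detected on the arrays and 1, Nr4a1, that was not. Capitals mark TGACG or its reverse complement CGTCA, which is the CREB half-site, the CArG box bound by SRF in Egr2, and in Nr4a1 one match to GCGNGGGCG on the other strand, the motif of the EGR factors.
Fos (chr12:85473640-85473889, plus strand): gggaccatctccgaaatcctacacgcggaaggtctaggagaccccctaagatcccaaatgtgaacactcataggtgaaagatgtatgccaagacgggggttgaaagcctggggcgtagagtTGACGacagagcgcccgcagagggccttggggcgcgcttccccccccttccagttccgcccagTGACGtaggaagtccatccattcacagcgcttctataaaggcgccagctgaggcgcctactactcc
Junb (chr8:84978749-84978998, minus strand): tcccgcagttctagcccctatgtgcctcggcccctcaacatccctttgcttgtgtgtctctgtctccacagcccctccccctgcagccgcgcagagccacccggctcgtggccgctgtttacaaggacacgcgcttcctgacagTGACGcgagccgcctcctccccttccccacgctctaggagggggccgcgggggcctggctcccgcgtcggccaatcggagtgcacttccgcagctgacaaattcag
Egr2 (chr10:67537619-67537868, plus strand): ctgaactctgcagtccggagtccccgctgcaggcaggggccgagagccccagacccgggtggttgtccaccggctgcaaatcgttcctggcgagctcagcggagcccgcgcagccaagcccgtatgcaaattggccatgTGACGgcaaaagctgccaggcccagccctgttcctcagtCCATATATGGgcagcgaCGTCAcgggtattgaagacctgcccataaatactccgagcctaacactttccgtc
Nr4a1 (chr15:101266596-101266845, plus strand): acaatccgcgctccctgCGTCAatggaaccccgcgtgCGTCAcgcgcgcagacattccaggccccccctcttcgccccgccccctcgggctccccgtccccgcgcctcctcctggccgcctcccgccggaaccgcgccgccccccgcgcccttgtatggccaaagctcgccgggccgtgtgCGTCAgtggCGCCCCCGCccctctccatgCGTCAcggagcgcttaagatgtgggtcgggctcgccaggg
Both strands were searched, and the full site TGACGTCA contains TGACG on each of them. TGACG was found in at least 1 window of 7 of 7 genes (Fos, Fosb, Junb, Egr2, Npas4, Nr4a1 and Bdnf), against 17.8% of 32851 windows and 19.8% of 27025 genes. Bdnf had 7 windows and Egr2 had 5, so these genes had more chances of a match than the others, which had 1 each. Nr4a1 held 4 half-sites in its window and Fos, Egr2 and Npas4 held 2, those of Fos lying 129 and 66 bases before the start. The full TGACGTCA was in 0 of the 7 genes (1.55% of all windows), the CArG box in Egr2 (1.47%), and GCGNGGGCG in Fosb and Nr4a1 (4.7%). A match describes these letters and does not show binding.

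Expression is given as the background-corrected, quantile-normalised log2 bead signal, on which 1 unit is a doubling. Levels were not compared between probes. A probe counted as detected on an array when its detection p-value was under 0.01, and was tested when detected on at least 6 arrays, which 17815 probes were. Between 26.3% and 39.0% of probes were detected per array, and the median raw signal ran from 36.1 to 124. The clofibric acid array stood apart from the others, with a median correlation of 0.906 to them, followed by nimodipine at 0.927; the highest was 0.966. General neuron markers were detected (17 of 19 tested), as were 11 of 12 astrocyte and radial glia markers and 7 of 12 microglia markers, so the cultures also held transcripts of glia. In such bulk RNA, fewer cells of a type and less RNA per cell cannot be told apart.

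Fos, Junb and Egr1 were detected on all 48 arrays, Egr3 on 39, Egr2 on 22 and Arc on 18. These 6 genes, each with 1 probe, were tested (Fos ILMN_2750515, Junb ILMN_1220034, Egr1 ILMN_2662926, Egr2 ILMN_2623984, Egr3 ILMN_1227494, Arc ILMN_2597827). The other 4 genes did not pass: the Fosb probe was detected on 1 array, that of clofibric acid, and both Npas4 probes, the Nr4a1 probe and all 6 Bdnf probes on 0. The smallest detection p-value of any Bdnf probe on any array was 0.0505, that of Nr4a1 was 0.129 and that of Npas4 was 0.0137. Bdnf, Npas4 and Nr4a1 were therefore not above background here. That is not a measurement of absence, since a limit of these probes and a low transcript level at collection cannot be told apart. Second probes for Junb and Egr3 were also detected on 0 arrays; the Egr3 one came closest, with a smallest detection p-value of 0.0106, and so gives no second measure of Egr3.

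Egr1, a zinc finger factor widely used as a marker of neuronal activity, spanned the widest range, from 7.89 (memantine) to 11.23 (clofibric acid), a 10.2-fold spread of signal. Fos ran from 7.38 (nimodipine) to 9.70 (clofibric acid), and Junb from 6.35 (liothyronine) to 8.17 (clofibric acid). The same array thus held the highest level of all 3 genes. Egr2, best known outside neurons for its role in myelinating Schwann cells, reached 6.80 on a mock control and was not above background on the arrays where it was undetected. Egr3 ran from 5.24 to 7.48. Arc, which binds the endocytic machinery that removes AMPA receptors from synapses, ran from 4.85 to 6.08 with an SD of 0.261 over arrays, near the lower end of the scale. Among the 6 tested genes, Arc had the smallest SD over the 48 arrays and Egr3 the largest, 0.683.

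**Figure D1:**
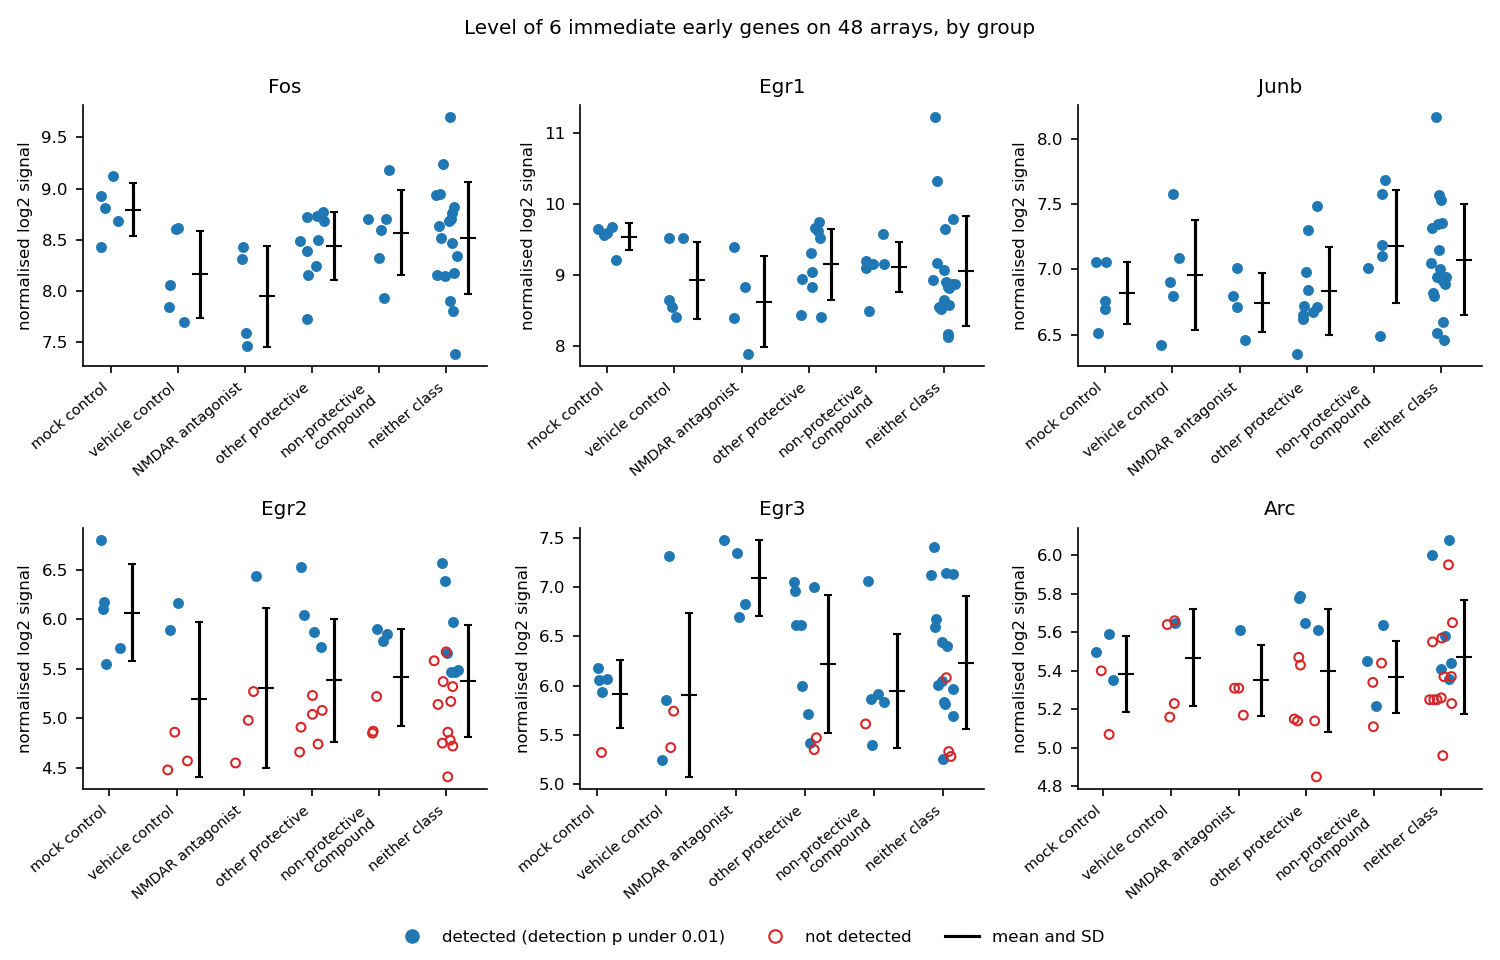
Normalised log2 signal of 6 genes (vertical axes) on 48 arrays in 6 groups. Each point is 1 array, filled where the probe was detected and open where not, and the bar gives the mean and SD. The 4 antagonist arrays lie between 6.70 and 7.48 for Egr3, while 9 of the 10 controls lie at or below 6.18.

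The antagonist arrays were set against the controls to ask whether activity-induced transcripts stood at a different level with a receptor antagonist. The molecule was present before NMDA and through the recovery up to collection. Blocking during the exposure therefore cannot be told apart from presence of the molecule afterwards. Egr3 rose with the antagonists and was the 1 gene of the 6 past the threshold. Fos and Egr1 had lower means that did not pass. Over all tested probes 23.5% were called (12.2% higher, 11.3% lower), so 1 of 6 is a share no larger than the background.

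Egr3, a factor induced downstream of NMDA receptor and kinase signalling, stood at 7.48 with ifenprodil, 7.35 with MK-801, 6.83 with riluzole and 6.70 with memantine. In the mock controls it stood at 6.07, 5.93, 6.18, 6.06 and 5.32, and in the vehicle controls at 5.24, 5.37, 7.32, 5.74 and 5.85. The antagonist arrays overlapped with 1 control, the vehicle array of chip 6, and lay above the other 9. The mean was 7.09 ± 0.383 (SD, n = 4) against 5.91 ± 0.6 (SD, n = 10), a 2.27-fold difference (log2 1.18, SE 0.295, 95% interval 0.55 to 1.81, limma adjusted p = 0.00998 over all tested probes). Detection was met with all 4 antagonists and in 7 of the 10 controls. With chip as a block the difference was 1.09 (adjusted p = 0.0101). Within chips each antagonist lay above the control of its own chip, by 0.77 to 1.30. By label, ifenprodil alone had the same solvent as that control, so for the others compound and solvent cannot be told apart there. The call was lost with median scaling (0.93, adjusted p = 0.0888), without the ifenprodil array (1.05, adjusted p = 0.0503) and against the vehicle controls alone (1.18, adjusted p = 0.0722). Median scaling moved the median of all probes from -0.05 to -0.27 and the higher share of all calls from 51.8% to 23.3%.

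Neuron markers moved in the same direction in this comparison. Of 17 tested neuron markers 16 were called higher and 0 lower, with a median log2 difference of 1.45 against -0.05 over all probes. The neuron marker score (the mean of centred log2 levels over the 17 genes) was 0.54 to 1.21 on antagonist arrays and -0.85 to 0.49 on controls, and the vehicle array of chip 6 held that highest control score, 0.49. Of 14 cell division genes 12 were called lower (median -1.05). Their part in the Egr3 difference was not tested.

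Fos, the partner of Jun proteins in AP-1, stood at 8.31 with ifenprodil, 7.59 with MK-801, 8.43 with riluzole and 7.46 with memantine. The mock controls stood at 8.93, 8.81, 8.68, 9.12 and 8.43 and the vehicle controls at 8.60, 8.61, 8.06, 7.69 and 7.84, so the groups overlapped. The difference was -0.53 (SE 0.257, 95% interval -1.07 to 0.02, adjusted p = 0.15). Egr1 stood at 8.83, 8.40, 9.40 and 7.89 on the same 4 arrays, a mean of 8.63 ± 0.642 (SD, n = 4) against 9.24 ± 0.501 (SD, n = 10) in controls. Its difference was -0.61 (SE 0.288, 95% interval -1.22 to 0.00, adjusted p = 0.139). Leaving out 1 array moved the Egr1 difference over -0.87 (without riluzole) to -0.36 (without memantine) and that of Fos over -0.69 to -0.37, by the same 2 arrays, and neither was called in any of these fits. Which controls were used mattered for both: against mock controls alone, where 26.3% of probes were called, Fos was lower at -0.85 (adjusted p = 0.0165) and Egr1 at -0.92 (adjusted p = 0.0213), but against vehicle controls alone the differences were -0.21 and -0.30 (adjusted p = 0.643 and 0.592). With chip as a block, where 19.3% of probes were called, Egr1 was called at -0.69 (adjusted p = 0.0457) and Fos was not (-0.63, adjusted p = 0.0828).

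Within chips, all 4 antagonists lay below the control of their own chip for Fos, with log2 differences of -0.23 (memantine), -0.37 (ifenprodil), -0.69 (riluzole) and -1.53 (MK-801). The same held for Egr1, with differences of -0.26 (riluzole) to -1.26 (MK-801). MK-801 and riluzole, both in DMSO, shared chip 4 and its 1 control, a mock control in water. Memantine, in water, was set against a vehicle control in DMSO. Ifenprodil and its control were both in water. In the pairs other than that of ifenprodil, compound and solvent cannot be told apart. Egr2, Junb and Arc were mixed within chips: 2, 2 and 3 of 4 antagonists lay below. Their fitted differences were -0.32 (SE 0.406) for Egr2, which was detected on 1 of the 4 antagonist arrays and moved over -0.70 (without riluzole) to -0.07 (without memantine), -0.14 (SE 0.175) for Junb, and -0.08 (SE 0.13) for Arc. The adjusted p-values were 0.62, 0.606 and 0.72.

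**Figure D2:**
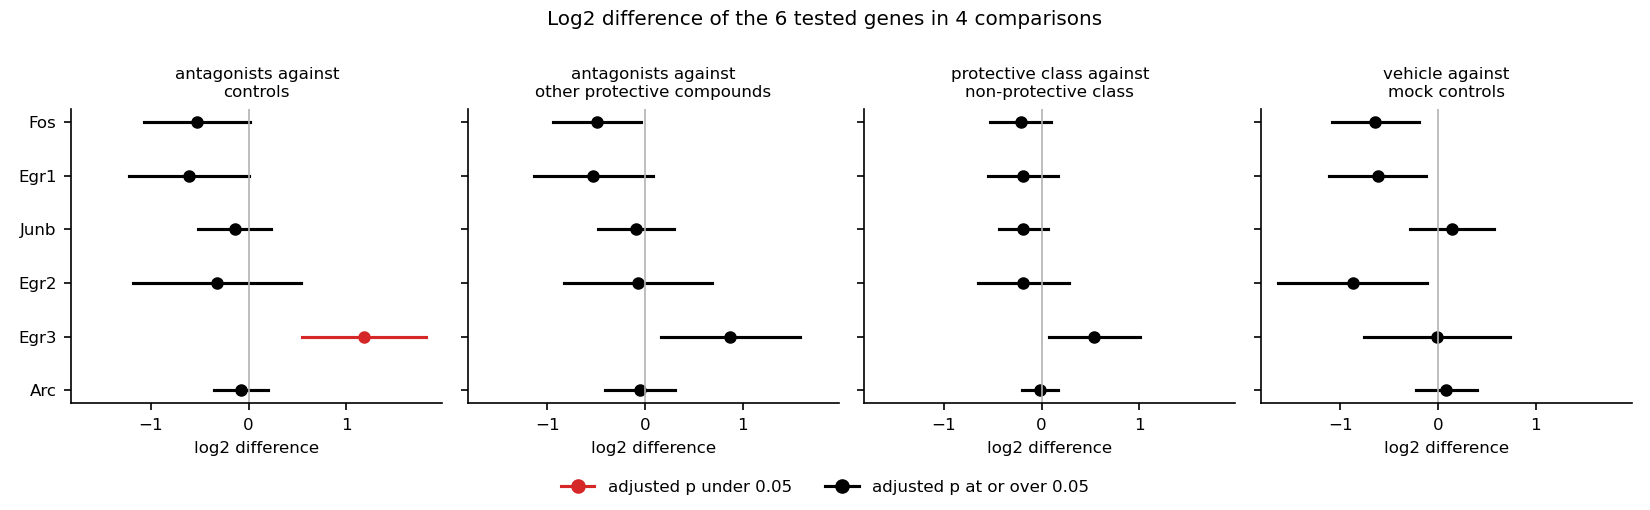
Log2 difference (horizontal axis) of 6 genes in 4 comparisons, with 95% intervals from the limma fit; red marks an adjusted p under 0.05. Egr3 in antagonists against controls (1.18, interval 0.55 to 1.81) is the 1 red entry of the 4 comparisons.

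Against the 10 other protective compounds, 0 of the 6 genes were called by limma (3.65% of probes were; 2 genes and 16.5% of all probes had an unadjusted p under 0.05). Egr3 was 7.09 ± 0.383 (SD, n = 4) against 6.22 ± 0.7 (SD, n = 10), a difference of 0.87 (95% interval 0.16 to 1.58, adjusted p = 0.189). Of the other protective compounds, rolipram, a phosphodiesterase inhibitor that raises cyclic AMP, had the highest Egr3 level at 7.05, followed by the thyroid hormone liothyronine and then carbenoxolone at 6.96, all within the antagonist range. Methotrexate was lowest at 5.35, where the probe was not detected. Fos was lower with the antagonists by 0.49 (95% interval -0.94 to -0.04, adjusted p = 0.243) without passing. The comparisons with controls and with other protective compounds share the antagonist arrays.

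By class, none of the 6 genes separated the 14 protective from the 16 non-protective arrays in limma, where 7.63% of probes were called while 1 member and 27.3% of all probes had an unadjusted p under 0.05. Egr3 was 6.47 ± 0.734 (SD, n = 14) against 5.92 ± 0.573 (SD, n = 16), a difference of 0.54 (95% interval 0.08 to 1.01, adjusted p = 0.119). Fos, Junb, Egr1 and Egr2 differed by -0.21 to -0.19, with intervals that all included 0, and Arc by -0.02. With the 3 groups kept apart, 0 members were called in protective compounds against controls (5.68% of probes called; 1 member and 27.2% of probes with an unadjusted p under 0.05), in non-protective compounds against controls (0.0168%, 0 members and 6.21% of probes) and in protective against non-protective compounds (0%, 1 member and 13.7% of probes). The 16 compounds of neither class also had 0 members called against controls (6.81%; 0 members and 24.5% of probes with an unadjusted p under 0.05), with differences of -0.23 (Egr2) to 0.27 (Egr3).

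A linear fit of log2 signal to the log2 of the protection ratio, with 36 compounds and repeats averaged, gave 0 members past the threshold in limma (0% of probes called). In this fit 0 members and 5.32% of all probes had an unadjusted p under 0.05. Egr3 had the largest slope, 0.45 log2 units per doubling of the ratio, with an adjusted p of 0.848. Benzamide, which has the second highest ratio (2.01), had Egr3 at 5.47, where it was not detected. Rolipram, with the highest ratio (2.76), had it at 7.05. Agmatine, with the lowest ratio (0.61), had 5.86.

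The vehicle and mock controls differ by the solvent and, in part, by the chip they were run on and the position on it. Fos, Egr1 and Egr2 had lower means with vehicle. In limma 0 of the 6 genes were called (0% of probes), although 3 members and 19.9% of all probes had an unadjusted p under 0.05. Fos was 8.16 ± 0.426 (SD, n = 5) with vehicle against 8.80 ± 0.26 (SD, n = 5), a difference of -0.64 (adjusted p = 0.182). Egr1 differed by -0.61 (adjusted p = 0.194) and Egr2 by -0.87 (adjusted p = 0.207), while Egr3 differed by -0.01 (95% interval -0.76 to 0.74). Egr2 was detected on 5 of 5 mock and 2 of 5 vehicle arrays. With chip as a block, a fit in which the solvent difference rests on the 2 pairs of chips 1 and 2, the calls changed. Egr3 was lower with vehicle by a log2 difference of -0.70 (adjusted p = 0.00278) and Junb higher by 0.55 (adjusted p = 0.00457). In that fit 24.6% of all probes were called. With 2 pairs little spread was left to measure the error, so these p-values rest mainly on the spread that limma takes from all probes. On the 2 chips with both kinds, vehicle minus mock was -0.33 and -0.20 for Fos, 0.30 and -0.05 for Egr1 and 0.18 and 0.06 for Egr2. It was -0.84 and -0.57 for Egr3 and 0.53 and 0.58 for Junb, the same sign on both chips. On both, the mock control sat at position A and the vehicle control at position B. Solvent and position therefore cannot be told apart in these pairs. The lowest vehicle values of Fos, Egr1 and Egr2 were on chips 6, 7 and 8, which held no mock control, so solvent and chip cannot be told apart there. For Egr1 these vehicle arrays stood at 8.65, 8.41 and 8.56, against 9.52 and 9.52 on chips 1 and 2. Fos was lower with vehicle on chips 1 and 2 as well.

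For these 3 genes the chip means followed the same pattern over all arrays. Mean Fos was 8.47 to 8.91 on chips 1 to 5 and 7.91 to 8.26 on chips 6 to 8. Mean Egr1 was 9.01 to 9.60 on the first set and 8.53 to 8.80 on the second. Egr2 was detected on 6 of 6 arrays of chip 1 and on 0 of the 12 arrays of chips 7 and 8. In a moderated F test over chips with all 48 arrays, Fos (adjusted p = 0.000687), Egr1 (0.002) and Egr2 (0.000236) were called, and Junb (0.0936), Egr3 (0.176) and Arc (0.136) were not; 53% of all probes were called, so 3 of 6 is close to the background. With group as a further term the same 3 genes were called, where 54.6% of all probes were called. What the chips share besides the slide (a culture, a day, a scan) is not given in the sources used here.

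**Figure D3:**
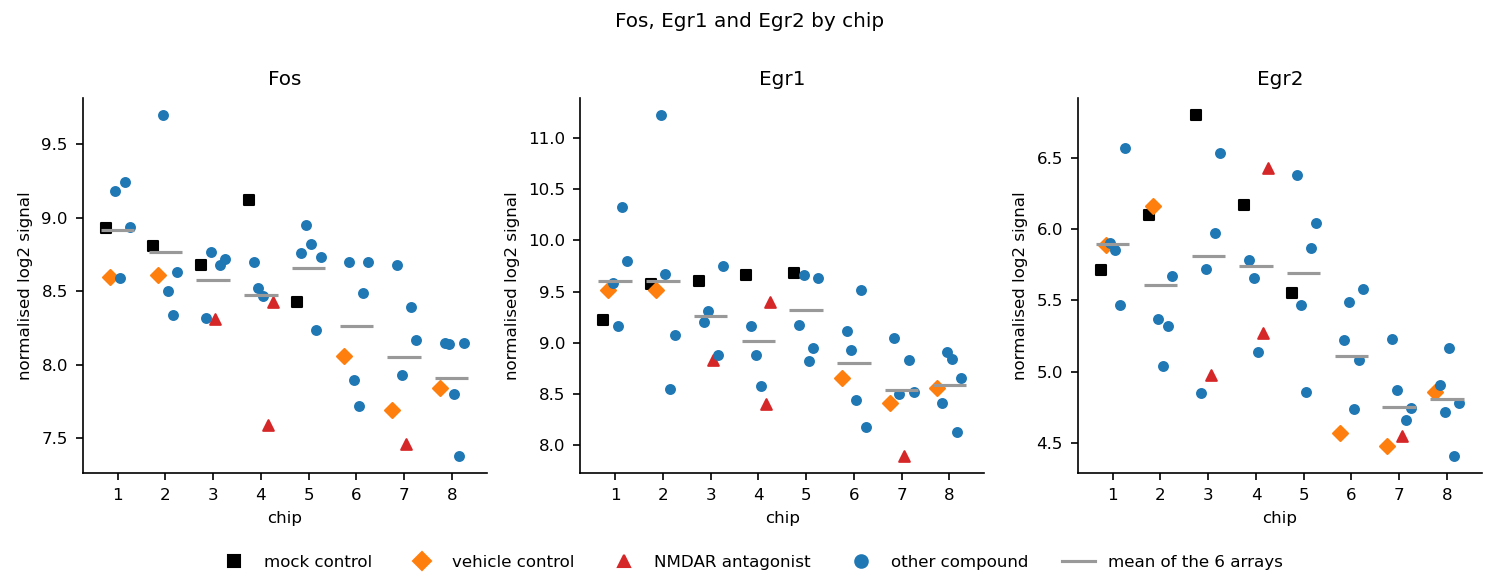
Normalised log2 signal of Fos, Egr1 and Egr2 (vertical axes) on each of 8 chips (horizontal axis), with 6 arrays a chip and a grey line at their mean. Mean Egr1 lies at 9.60 on chips 1 and 2 and at 8.53 and 8.58 on chips 7 and 8, and the antagonist arrays of chips 3, 4 and 7 lie below the control of their chip for Fos and Egr1.

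By mechanism label, the F test over the labels with at least 3 compounds called 0 of the 6 genes (0.163% of probes called). In that test 0 members and 15.5% of all probes had an unadjusted p under 0.05. Egr3 was highest with NMDAR antagonists (7.09), then with the 1 multi-target compound (6.96) and the 2 hormones (6.41), and lowest with the 2 antibiotics (5.33) just after the controls (5.91). Mean Fos was highest with the 2 free radical scavengers (8.84), stood at 8.48 in controls, and was lowest with NMDAR antagonists (7.95) and the 2 hormones (7.81). Egr1 was highest with the antibiotics (9.64) and lowest with NMDAR antagonists (8.63) and the multi-target compound (8.41). In each gene's order of 11 labels, 0 of the 10 steps between neighbours exceeded the larger of their SDs. Neighbours in a sorted order lie close by construction, so this count cannot show whether labels farther apart differ. Taken 1 at a time against controls, 0 members were called for ion channel blockers (0.0225% of probes called), enzyme inhibitors (0.18%), receptor agonists (0%), immunomodulators (0.135%) and anti-apoptotic compounds (0%). An unadjusted p under 0.05 was reached by 0 members in each. In the same order, it was reached by 13.5%, 14.6%, 9.06%, 9.88% and 4.58% of all probes.

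Single compounds have no replicate check, and the repeat arrays show how far 1 array can move. Egr3 stood at 7.14 and 6.08 on the 2 Z-VAD-FMK arrays (a caspase inhibitor), a distance of 1.06, and at 7.12 and 6.44 on those of MitoPBN and MitoPBN2. Fos differed by 0.02 and 0.35 and Egr1 by 0.13 and 0.33 in the same pairs. Across 38 compound arrays and 6 genes, 13 values differed from the mean of the controls by 1 log2 unit or more and also lay beyond the lowest or highest of the 10 controls. One of them, Egr2 with nimodipine, was a signal not above background, so its distance from the controls is not given. Among the compounds with such values, clofibric acid, nimodipine and simvastatin were in ethanol, which no control had. For them compound and solvent cannot be told apart.

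Clofibric acid, a fibrate that activates PPAR-alpha, accounted for 3 of them: Egr1 at 11.23 (1.99 above the control mean), Junb at 8.17 (1.29 above) and Fos at 9.70 (1.22 above). Its Egr3 signal, 5.33, was within the control range and not detected. On the same array the microglia marker score was -2.67 and the oligodendrocyte lineage score -2.50, the lowest of all 48 arrays for both, and the neuron score was 0.59. Minocycline, a tetracycline antibiotic, had the next highest Egr1 level at 10.33, with Fos at 9.24 just above the control range.

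Nimodipine, a blocker of L-type calcium channels, showed the opposite arrangement: Fos at 7.38 was the lowest of all arrays, Egr1 was 8.13, Egr2 was not above background as on every array of chips 7 and 8, and Egr3 was 7.41, the highest outside the antagonists. Its neuron score was 1.07 and its astrocyte and radial glia score -0.57, the lowest of all arrays. Memantine, which blocks the open NMDA receptor channel, had the lowest Egr1 level of all arrays, 7.89, and Fos at 7.46. MK-801, a blocker of the same pore, had Fos at 7.59 and Egr1 at 8.40. Ifenprodil (7.48) and MK-801 (7.35) were past the rule for Egr3. The last of the 13 values was Egr1 with simvastatin, a statin, at 8.17. On chips 7 and 8, where memantine and nimodipine were run, the vehicle controls stood at 7.69 and 7.84 for Fos and 8.41 and 8.56 for Egr1. On chip 6, where simvastatin was run, the vehicle control stood at 8.65 for Egr1.

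**Figure D4:**
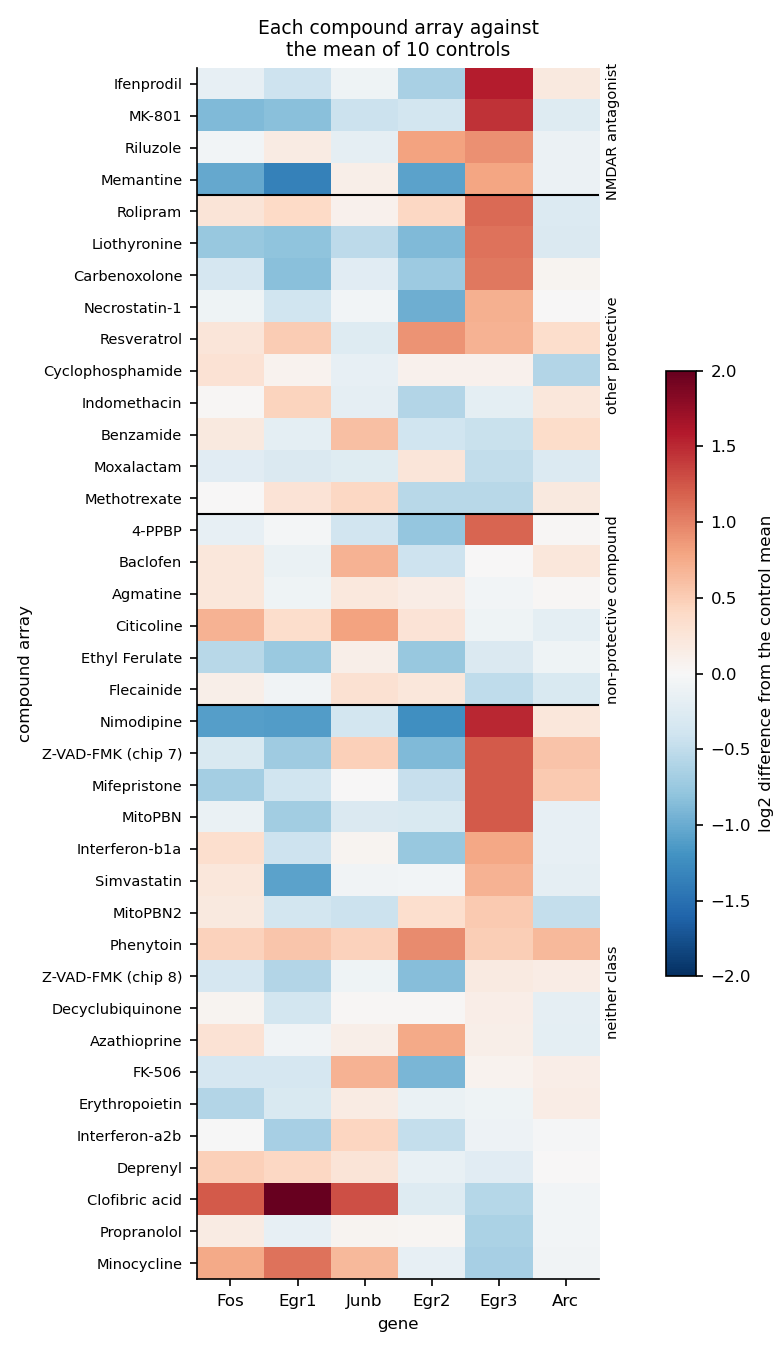
Log2 difference of each of 38 compound arrays (rows, in 4 groups, ordered by Egr3) from the mean of the 10 controls for 6 genes (columns). Red is above and blue below the control mean; clofibric acid reaches 1.99 for Egr1, and nimodipine is 1.51 above for Egr3 and 1.10 below for Fos.

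Fos and Egr1 were high and low on the same arrays, while Egr3 ran the other way. Over 46 arrays (repeats averaged) Fos and Egr1 had a Pearson r of 0.81 (Spearman 0.73, both permutation p = 1e-05, the smallest that 100000 permutations can give, adjusted 6e-05 over 6 pairs of the 4 genes detected on at least 24 arrays). Without the 2 farthest arrays, clofibric acid and nimodipine, r was 0.75, and after chip means were removed it was 0.67 (adjusted p = 3e-05). Junb followed Fos (r = 0.56, rho = 0.46, permutation p = 4e-05 and 0.00117, adjusted 0.00012 and 0.00234) and Egr1 less closely (r = 0.51, rho = 0.34, adjusted 0.000684 and 0.0237). Without the clofibric acid array these were 0.47 and 0.35, and without the 2 farthest arrays 0.43 and 0.32. Egr3 was negatively related to Junb (r = -0.52, rho = -0.51), Egr1 (r = -0.48, rho = -0.44) and Fos (r = -0.45, rho = -0.33), with adjusted permutation p of 0.0237 or less. After chip means were removed these 3 values were -0.44, -0.42 and -0.33, and without the 2 farthest arrays -0.50, -0.42 and -0.35.

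The 4 genes were also set against 8 marker scores, 32 relations in all. Egr3 followed the neuron marker score with r = 0.85 and rho = 0.78 (permutation p = 1e-05, the smallest possible, adjusted 5.33e-05 for r and 6.4e-05 for rho). It was 0.84 after chip means were removed, 0.82 without the 2 farthest arrays (ifenprodil and nimodipine) and 0.81 without the antagonists. The clofibric acid array lay off this line, with a score of 0.59 and undetected Egr3. Egr3 ran against the cell division score (r = -0.72, rho = -0.68, adjusted 5.33e-05 and 6.4e-05), with r = -0.69 after chip means were removed and without the 2 farthest arrays. Fos followed the astrocyte and radial glia score (r = 0.68, rho = 0.61, adjusted 5.33e-05 and 6.4e-05), at 0.70 after chip means were removed and 0.57 without the 2 farthest arrays. Egr1 followed the same score less closely (r = 0.47, rho = 0.39, adjusted permutation p 0.00348 and 0.0165). It followed the endothelial, mural and meningeal score about as closely (r = 0.42, rho = 0.52, adjusted permutation p 0.00943 and 0.00155). With the microglia score r was 0.14 for Fos and -0.02 for Egr1, but 0.55 and 0.49 without the clofibric acid array. Fos also ran against the excitatory neuron score (r = -0.48, rho = -0.4, adjusted permutation p 0.00283 and 0.0165), at -0.35 after chip means were removed. Its relations to the general neuron score (r = -0.32, adjusted permutation p 0.0501) and the inhibitory neuron score (r = -0.17, adjusted permutation p 0.306) were weaker and did not pass 0.05. Not every relation with a low adjusted p is listed here. Levels and scores come from the same arrays and share their normalisation.

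**Figure D5:**
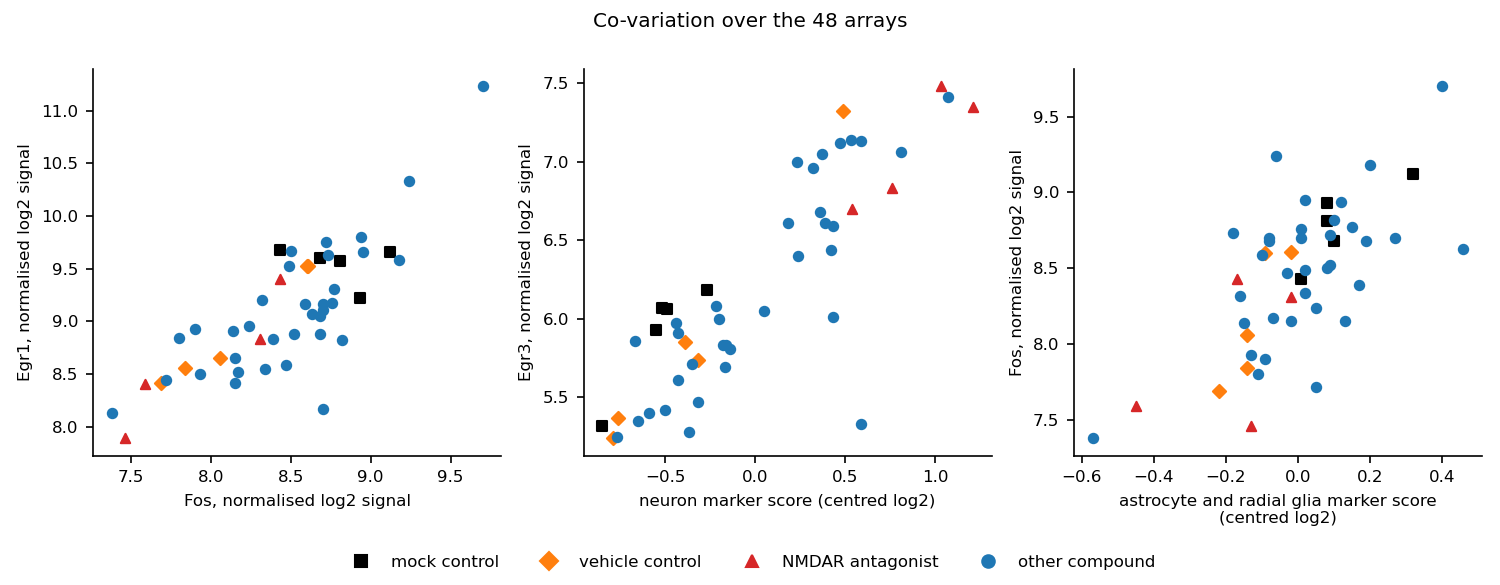
Egr1 against Fos, Egr3 against the neuron marker score and Fos against the astrocyte and radial glia marker score, all on log2 scales, with 1 point for each of 48 arrays. Points rise together in each panel, and in the middle panel the clofibric acid array (score 0.59, Egr3 5.33) lies below the arrays of similar score.

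Among 1 probe of each other tested gene, those most like each member over the 48 arrays were named by Pearson r, as a description. They were Rap1b (0.87), Tgif1 (0.83) and Egr1 (0.80) for Fos, and Fos (0.80), Tgif1 (0.79) and Klf4 (0.79) for Egr1. For Junb they were Zfp36, Tor1aip1 and Rilpl2 (0.74 each). Egr3 was nearest to 4931428F04Rik (0.92), Slitrk1 (0.92) and Ptbp2 (0.91). Egr2 was nearest to Cd83 (0.87), Itgax (0.86) and Fabp5 (0.84), and Arc to Stx3 (0.62), Smyd5 (0.56) and Defb46 (0.55). Egr2 was detected on 22 and Arc on 18 of the 48 arrays, fewer than the 24 asked of the genes correlated above, so most of their signals in these values were not above background.

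Other genes of the activity response were followed in antagonists against controls. The lists leave out the 10 genes above, but that of the activity-regulated inhibitor of death programme also names Nr4a1 and Npas4, which were not tested. Of 41 further rapid primary response genes 28 were tested, 3 were called higher and 4 lower, and their median log2 difference was -0.23 against -0.05 over all probes. The polo-like kinase gene Plk2 rose by 1.03 (SE 0.188, adjusted p = 0.0018) and the synaptic scaffold gene Homer1 by 0.68 (SE 0.156, adjusted p = 0.00657). The stress response genes Gadd45g (-0.67, SE 0.145, adjusted p = 0.00482) and Ier3 (-0.65, SE 0.183, adjusted p = 0.0188) fell. Of 30 delayed and late response genes 17 were tested, 4 were called higher and 2 lower (median 0.37). Those with the smallest p were the synaptotagmin gene Syt4 (1.74), the secretogranin gene Scg2 (1.23), Rasgrp1 (0.72) and Rasl11b (0.54), all higher.

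Of 40 genes that carry calcium signals to the nucleus 26 were tested, 13 were called higher and 1 lower, with a median of 0.40. The calcium-dependent kinase genes Camk2b (1.94, SE 0.294, adjusted p = 0.000807) and Camk4 (1.15), the transcription factor gene Mef2c (1.40) and the CREB coactivator gene Crtc1 (0.76) rose. Several of these genes are themselves expressed mainly in neurons, and the neuron markers moved as given above. Of 17 neurotrophins and their receptors 8 were tested and 1 was called, the receptor gene Ntrk3, higher by 0.87 (SE 0.185, adjusted p = 0.00417). Of 10 genes of the activity-regulated inhibitor of death programme 4 were tested and 1, Gadd45g, was called, lower. Gadd45g is also in the rapid primary response list, so this is the same call as the one given there. Each of these counts stands beside 23.5% of all probes called.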

How the data were processed

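The deposited intensity values are linear bead signals per probe, which the authors obtained with BeadStudio, per the submitters' processing notes; no source used here gives its version or settings. A detection p-value accompanies every deposited signal, per the file headers. The deposited series matrix holds the same intensity less 1 constant per array (32.3 to 111; 8 values differ by more than 0.1). There were 0 columns without a sample.

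Signals were corrected with limma's normexp model from the detection p-values (nec, offset 16), quantile normalised and put on the log2 scale. Probes detected (detection p under 0.01) on at least 6 of 48 arrays were tested: 17815 of 46632, covering 9869 genes. Probe symbols come from an old platform annotation. A gene's probe of highest mean stood for it. Each comparison was fitted on its own arrays with limma 3.58.1 (lmFit, eBayes) in R 4.3.3, two-sided, with Benjamini-Hochberg adjustment over all tested probes and a threshold of 0.05. Repeat arrays were averaged in the slope, mechanism and neither-class fits; with chip as a block the first repeat array was used. Permutations (100000, two-sided) used numpy 2.4.6 and scipy 1.17.1 (Python 3.11.15). Fits were tested on simulated data. The number of arrays limits the precision.

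The members, gene lists, groups and tests were chosen with earlier results of these data known. Named genes are all members, the 3 genes most like each, up to 4 members of each further list with the smallest p, and single-compound values that differ from the mean of controls by 1 log2 unit or more and lie beyond all of them. Alternatives changed background, scaling, source of values, filter, prior, probe choice, chip, position, solvent and replicates. Mock and vehicle controls share replicate numbers in the labels, but same-numbered arrays did not deviate together (correlations of -0.15 to 0.16), so no pairing was used.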

Additional observations from a re-analysis of the deposited data

Results flagged for a closer look

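Chance alone marks about 1 in 20 groups by the test of extreme values used here, and 30 groups were tested. In the 5 mock controls, Egr1 on the chip 1 array stood at 9.22, apart from the other 4 at 9.57 to 9.68. Egr3 on the chip 5 mock array stood at 5.32, apart from the other 4 at 5.93 to 6.18, and the probe was not detected there; this array also had the lowest neuron marker score of all arrays, -0.85. Among the 6 non-protective compounds, Egr3 with 4-PPBP on chip 3 stood at 7.06, apart from the other 5 at 5.40 to 5.91; its neuron marker score was 0.81, the highest of that group.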

How the results depend on the processing

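In 13 of 16 comparisons 0 members were called in the reported fit and in every alternative run (155 alternatives in all). The exceptions were antagonists against controls, vehicle against mock controls and the F test over chips. The last called the same 3 members with group as a further term, where 54.6% of all probes were called. For antagonists against controls the count of 1 became 0 with median scaling (12.2% of all probes called), 0 without the ifenprodil array (12.8%), 0 against vehicle controls only (9.27%), 2 with chip as a block (19.3%) and 3 against mock controls only (26.3%); leaving out 1 array gave 0 to 1. Egr2 turned to 0.12 against vehicle controls only. Position could not be fitted there, since controls sat at positions A and B and antagonists elsewhere.

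For vehicle against mock controls the count of 0 became 2 with chip as a block, where 24.6% of all probes were called (Junb 0.55, adjusted p = 0.00457; Egr3 -0.70, adjusted p = 0.00278). That fit rests on the 2 pairs of chips 1 and 2, and its p-values mainly on the spread that limma takes from all probes. The count became 3 with position as a covariate, where 24.1% of all probes were called (Fos -0.93 and Egr2 -1.43, with Egr1 at an adjusted p of 0.000181). The position fit sets vehicle arrays of chips 6 to 8 against mock arrays of chips 1 to 5. Signs turned for Egr1 (0.12), Egr2 (0.12) and Arc (-0.23) under the chip block, Junb (-0.11) and Egr3 (0.39) under position, Junb (-0.07) and Arc (-0.11) under median scaling and Egr3 (0.03) without background correction. Leaving out 1 array gave -0.36 to 0.16 for Egr3 and -0.01 to 0.28 for Junb. With the replicate block the count stayed at 0 (Fos -0.64, adjusted p = 0.252); no number correlated best with its own.

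Against other protective compounds, Egr2 turned to 0.01 with position as a covariate, and leaving out 1 antagonist gave -0.45 to 0.18 for Egr2, -0.18 to 0.00 for Junb and -0.14 to 0.01 for Arc. Arc turned to 0.11 between the classes with position. The cause of these changes was not tested. The 13 single-compound values numbered 9 to 15 with other background, scaling or source values. Bdnf, Npas4, Nr4a1 and Fosb were limited by signal over background.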
